A study of Mus musculus with 14 samples.

Results

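C2C12 cells, an immortalized line of mouse skeletal muscle myoblasts, were kept for 7 days in different media before their poly(A) RNA was sequenced. The medium called DM2 held 10% fetal calf serum (FCS) plus a cocktail of 1 µg/ml insulin, 0.5 mM IBMX (a phosphodiesterase inhibitor), 0.5 µM dexamethasone (a glucocorticoid) and 2 µM rosiglitazone (an agonist of the nuclear receptor PPARγ). DM3 joined the same cocktail to 2% horse serum (HS), and DM1 held 2% HS alone. All followed growth in 20% FCS, the state sampled at day 0. The comparison described here sets the 2 libraries of DM2 at day 7 against the 2 of DM1 at day 7, picked by the medium and day in their labels, out of 14 libraries in the series. The kind of serum, its amount and the cocktail all differ between these groups, so their shares in any difference cannot be told apart. DM2 and DM1 at day 2, DM3 at day 7 and day 0, with 2 libraries each, serve as context. The labels number the replicates without saying that they were separate cultures, so p-values measure the spread between libraries, which may be technical.

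Low horse serum is the usual trigger for C2C12 myoblasts to leave the cell cycle, switch on the regulator Myog, fuse into myotubes and build sarcomeres. The cocktail is the usual trigger for fat cell formation in mesenchymal precursors: rosiglitazone acts on PPARγ, dexamethasone on the glucocorticoid receptor, IBMX keeps cAMP high, and insulin drives glucose uptake and lipid synthesis. Fibroblastic and myoblastic cells also secrete a collagen matrix and remodel it with metalloproteases. Cells whose endoplasmic reticulum (ER) is loaded beyond its folding capacity raise chaperones and stress regulators through the unfolded protein response. In RNA from a whole culture, fewer cells of a type and less RNA per cell cannot be told apart.

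The 4 libraries held 29784885 and 29402114 expected counts in DM2, against 26580181 and 22847812 in DM1. Replicates ranked genes alike, with Spearman correlations of 0.995 in DM2 and 0.994 in DM1 over the 15973 genes tested. Levels are given in CPM, here counts over the TMM-adjusted library size, times 1000000, and log2 fold changes are DM2 over DM1 with their standard error. The muscle regulator Myod1 had 16.1 and 20.4 CPM in DM2, against 38.4 and 27.8 CPM in DM1, and the embryonic myosin Myh3 had 86.6 and 74.6 CPM in DM2, against 168 and 119.6 CPM in DM1, so both defining muscle genes were detected in all 4 libraries. Processed pseudogenes took 3.66 and 3.86% of counts in DM2, against 2.37 and 2.33% in DM1. Mitochondrially encoded mRNA took 3.63 and 3.19% in DM2, against 2.40 and 2.73% in DM1. Without pseudogenes and small RNAs 9566 genes passed the main comparison described next. The part of the mitochondrial share in the results was not tested. Elsewhere in the fit, replicate 2 of DM3 at day 2 stood apart from its partner (Spearman 0.962), and without it 9814 of 16692 genes tested passed the main comparison.

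Most of the genes tested differed between the media at day 7. Of 15973 genes, 9238 (57.8%) passed an adjusted p under 0.05 in the quasi-likelihood test of edgeR, adjusted by Benjamini and Hochberg. DM2 was higher for 4227 (26.5%) and lower for 5011 (31.4%). By at least 2-fold, 1357 (8.50%) were higher in DM2 and 2719 (17.0%) lower. The 2 libraries of DM2 did not overlap the 2 of DM1 for 6430 genes higher in DM2 and 6694 lower. A lack of overlap, where named below, was thus the common case among genes tested. The median over all genes tested was -0.01 on the log2 scale. With library totals in place of TMM that median moved to -0.27 and the calls split into 2763 higher and 6679 lower, 29.3% higher in place of 45.8%. By at least 2-fold the split was then 865 higher and 3475 lower, so every gene change below is relative to the TMM scale. Counts for gene lists are read against these shares. They describe lists written down with earlier results of these data known and do not test the list.

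Periostin (Postn), the collagenase Mmp13 and the soluble epoxide hydrolase Ephx2 were named as markers of this contrast with results of these data known, so their day 7 values are a description. Postn is a matrix protein that binds collagen and integrins, encoded at chr3:54361109-54391037 on the plus strand of GRCm38. It had 0.376 and 0.428 CPM in DM2, against 256 and 212 CPM in DM1. Mmp13 (chr9:7272514-7283331, plus strand), which cuts fibrillar collagen, had 38.2 and 26.2 CPM in DM2, against 0.0356 and 0.167 CPM in DM1. Ephx2 (chr14:66084374-66124500, minus strand), which opens fatty acid epoxides, had 43.4 and 48.2 CPM in DM2, against 0.0713 and 0.209 CPM in DM1. Both DM2 libraries lay far below both DM1 libraries for Postn and far above them for Mmp13 and Ephx2. Postn was 574-fold lower in DM2. By the fit Mmp13 was 316-fold higher in DM2, 188-fold without DM1 replicate 1 and 795-fold without DM1 replicate 2. In the last setting the ratio of counts scaled by library size was 906-fold (95% counting interval 162 to 35798). Ephx2 was 327-fold higher, 215-fold without DM1 replicate 1 and 602-fold without DM1 replicate 2. Its ratio of scaled counts in the last setting was 642-fold (95% counting interval 178 to 5306). The size of both rises therefore hangs on a few DM1 counts, while their direction was the same in each pair of libraries.

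All 3 markers had the same direction 5 days earlier, with a smaller difference. At day 2 the log2 fold change of Postn was -1.32 ± 0.33, and the step to day 7 itself passed the test (adjusted p = 4.65e-06). Mmp13 had 1.84 and 2.82 CPM in DM2 at day 2, against 0.798 and 0.413 CPM in DM1, with both DM2 libraries above both DM1 libraries but an adjusted p of 0.0666. The step to day 7 passed for Mmp13 (adjusted p = 0.00276). Ephx2 already stood at 10.2 and 10.2 CPM in DM2 at day 2, against 0.084 and 0.15 CPM in DM1, and its step to day 7 passed as well (adjusted p = 0.0409).

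The genes with the largest rises in DM2 were a mixed set, many of them known from tissues other than muscle. H2-M10.1, a nonclassical class I antigen gene from a cluster of close paralogs among which reads can be split, had 82.3 and 69.4 CPM in DM2, against 0 and 0 CPM in DM1. It was at least 653-fold higher against a floor of 3 counts per library. The checkpoint receptor Pdcd1, known from activated T cells, had 18.9 and 15.8 CPM in DM2, against 0 and 0 CPM in DM1 and was at least 149-fold higher. Crocc2, a relative of the ciliary rootlet protein, had 5.87 and 6.46 CPM in DM2, against 0 and 0 CPM in DM1 and was at least 53.1-fold higher. These 3 genes had no count in either DM1 library, so their folds are lower bounds. S100a8, a calcium-binding protein known from neutrophils, had 189 and 149 CPM in DM2, against 0.249 and 0.0835 CPM in DM1. It was 953-fold higher in DM2, and 2028-fold (95% counting interval 561 to 16749) without DM1 replicate 1. The ferritin receptor Scara5 had 34.7 and 33.5 CPM in DM2, against 0.0356 and 0.209 CPM in DM1. By the fit it was 281-fold higher, 160.0-fold without DM1 replicate 1 and 843-fold without DM1 replicate 2. The ratio of scaled counts in the last setting was 958-fold (95% counting interval 172 to 37856).

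Advillin (Avil), an actin-bundling protein of the villin family, had more reads in DM1 than the others of this set. It had 269.9 and 279 CPM in DM2, against 1.14 and 0.835 CPM in DM1, a log2 fold change of 8.10 ± 0.23 (adjusted p = 4.94e-10). Nos2, the inducible nitric oxide synthase, had 28.9 and 37.7 CPM in DM2, against 0.249 and 0.334 CPM in DM1, with a log2 fold change of 6.82 ± 0.55. Gfral, the receptor of the stress hormone GDF15, had 7.41 and 6.65 CPM in DM2, against 0.0356 and 0.0417 CPM in DM1, a ratio of 183-fold (95% counting interval 50.3 to 1518). The secreted peptide gene Ostn had 7.64 and 5.64 CPM in DM2, against 0.0356 and 0.0417 CPM in DM1, a ratio of 173-fold (95% counting interval 47.6 to 1436). Taf7l, a relative of a general transcription factor subunit known from testis, had 11.8 and 10.5 CPM in DM2, against 0.143 and 0 CPM in DM1. By the fit it was 138-fold higher, and 75.6-fold without DM1 replicate 2. Without DM1 replicate 1 no DM1 count was left, and Taf7l was at least 89.0-fold higher against the floor. DM2 and DM1 libraries did not overlap for any of these genes, which the rule for naming them required.

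**Figure D1:**
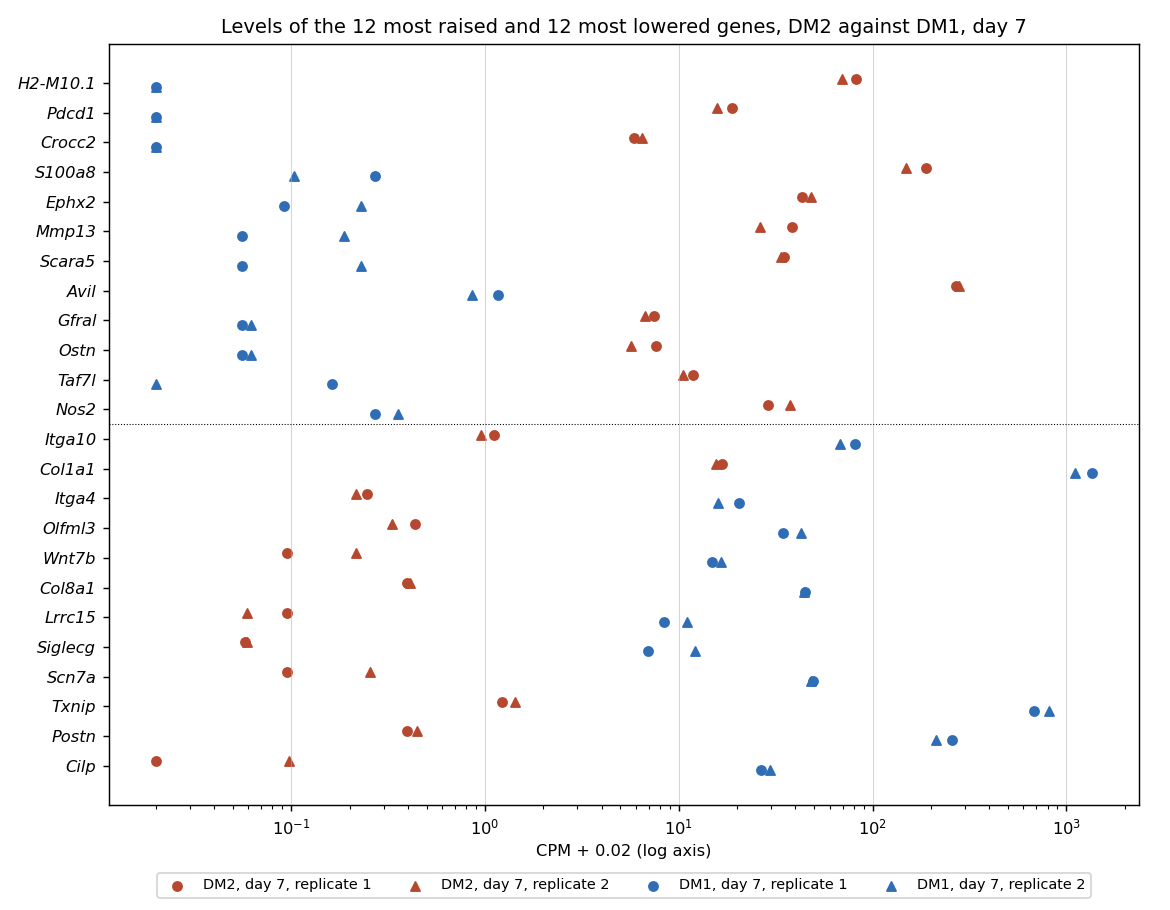
Level of the 12 genes most raised (upper block) and 12 most lowered (lower block) in DM2 against DM1 at day 7, in CPM plus 0.02 on a log axis, with 1 point per library. For the raised block every DM2 library lies to the right of both DM1 libraries, and for the lowered block to the left, as the rule that chose the genes required.

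Among the genes with the largest falls in DM2, several belong to the matrix or bind it. Col1a1, the main chain of type I collagen (chr11:94936224-94953042, plus strand), had 16.7 and 15.5 CPM in DM2, against 1361 and 1111 CPM in DM1, with a log2 fold change of -6.26 ± 0.19 (adjusted p = 5.51e-10). Col8a1, a short-chain collagen, had 0.376 and 0.389 CPM in DM2, against 44.5 and 44.3 CPM in DM1, a change of -6.84 ± 0.18. Cilp, a cartilage matrix protein, had 0 and 0.0778 CPM in DM2, against 26.4 and 29.5 CPM in DM1. The ratio for Cilp was 727-fold (95% counting interval 201 to 6008) in favour of DM1, 357-fold (95% counting interval 98.8 to 2954) without DM2 replicate 1 and at least 247-fold without DM2 replicate 2. Integrins, the receptors of the matrix, were among the falls. The collagen-binding subunit Itga10 had 1.09 and 0.934 CPM in DM2, against 81.1 and 68.2 CPM in DM1, 73.4-fold lower. The subunit Itga4, which binds fibronectin and VCAM1, had 0.226 and 0.195 CPM in DM2, against 20.5 and 16.0 CPM in DM1, 84.9-fold lower.

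Other large falls were spread over secreted and membrane proteins. The secreted protein Olfml3 had 0.414 and 0.311 CPM in DM2, against 34.5 and 42.8 CPM in DM1, 105-fold lower. Lrrc15, a leucine-rich membrane protein of matrix-producing cells, had 0.0753 and 0.0389 CPM in DM2, against 8.37 and 11.0 CPM in DM1. The sodium channel relative Scn7a had 0.0753 and 0.233 CPM in DM2, against 49.1 and 47.8 CPM in DM1. By the fit it was 306-fold lower, 203-fold without DM2 replicate 1 and 604-fold without DM2 replicate 2. The ratio of scaled counts in the last setting was 644-fold (95% counting interval 178 to 5323). The ligand Wnt7b had 0.0753 and 0.195 CPM in DM2, against 14.8 and 16.4 CPM in DM1. By the fit it was 113-fold lower, and 195-fold without DM2 replicate 2. The ratio of scaled counts in the latter setting was 207-fold (95% counting interval 57.1 to 1711). The lectin Siglecg, which binds sialic acid, had 0.0376 and 0.0389 CPM in DM2, against 6.91 and 12.1 CPM in DM1. Both DM2 libraries were at or close to 0 for Lrrc15, Scn7a, Wnt7b and Siglecg.

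Matrix genes as a class were lower in DM2. Of 20 collagen genes listed 19 were tested, and 15 fell and 3 rose, against 31.4% lower and 26.5% higher among all genes. The median collagen had a log2 fold change of -2.03, against -0.01 for all genes. Type III collagen Col3a1, the partner of type I in soft tissue, had 1229 and 1115 CPM in DM2, against 8665 and 7032 CPM in DM1, a change of -2.74 ± 0.11. Col1a2, the other chain of the type I trimer, had 267 and 261 CPM in DM2, against 2095 and 1845 CPM in DM1. It was 7.46-fold lower in DM2, beside 76.8-fold for Col1a1, a gap between chains of 1 protein that was not tested. Col5a3, a chain of the fibril-nucleating type V collagen, had 18.9 and 18.8 CPM in DM2, against 249 and 267 CPM in DM1, a change of -3.77 ± 0.10. Of the 3 that rose, the 2 with the largest rises were minor in level, and the other is not shown. The fibril-associated Col14a1 had 1.84 and 1.48 CPM in DM2, against 0.534 and 0.292 CPM in DM1, a rise of 1.98 ± 0.41. The basement membrane collagen Col15a1 had 0.602 and 0.506 CPM in DM2, against 0.107 and 0.0417 CPM in DM1, close to the detection floor in DM1.

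Glycoproteins and proteoglycans of the matrix moved as the collagens did. Of 28 tested members 23 fell and 4 rose, with a median of -1.67. The keratan sulfate proteoglycan Lum had 0.0376 and 0 CPM in DM2, against 3.03 and 2.92 CPM in DM1, which is 1 count over both DM2 libraries. Aspn, a related small leucine-rich proteoglycan, had 0.0753 and 0 CPM in DM2, against 4.77 and 4.76 CPM in DM1. Against this direction, the lubricating proteoglycan Prg4 had 222 and 178 CPM in DM2, against 14.6 and 8.81 CPM in DM1, a rise of 4.09 ± 0.31. Osteopontin (Spp1), a phosphoprotein of bone and injured tissue, had 704 and 630.2 CPM in DM2, against 450.2 and 364 CPM in DM1, a rise of 0.71 ± 0.26 (adjusted p = 0.0426).

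Enzymes that remodel the matrix, with their inhibitors, were more often lower than higher. Of 23 proteases and inhibitors 14 were lower and 6 higher in DM2. Adamts5, which cuts aggrecan, had 22.5 and 15.5 CPM in DM2, against 167 and 153 CPM in DM1, 8.43-fold lower. The metalloelastase Mmp12 joined Mmp13 among the rises, with 1.92 and 1.52 CPM in DM2, against 0.0713 and 0 CPM in DM1. Markers of tendon cells and fibroblasts were lower in 10 of 11 tested cases and higher in 0, with a median of -1.89. S100a4, also called fibroblast-specific protein, had 65.9 and 73.5 CPM in DM2, against 641 and 571 CPM in DM1, a change of -3.12 ± 0.12. The surface protease Fap had 0.339 and 0.272 CPM in DM2, against 4.17 and 3.21 CPM in DM1, a change of -3.57 ± 0.38. Summed over its 15 members this list came to 791 and 820.0 CPM in DM2, against 1889 and 1887 CPM in DM1, and its defining tendon gene Tnmd had 0 counts in all 4 libraries.

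**Figure D2:**
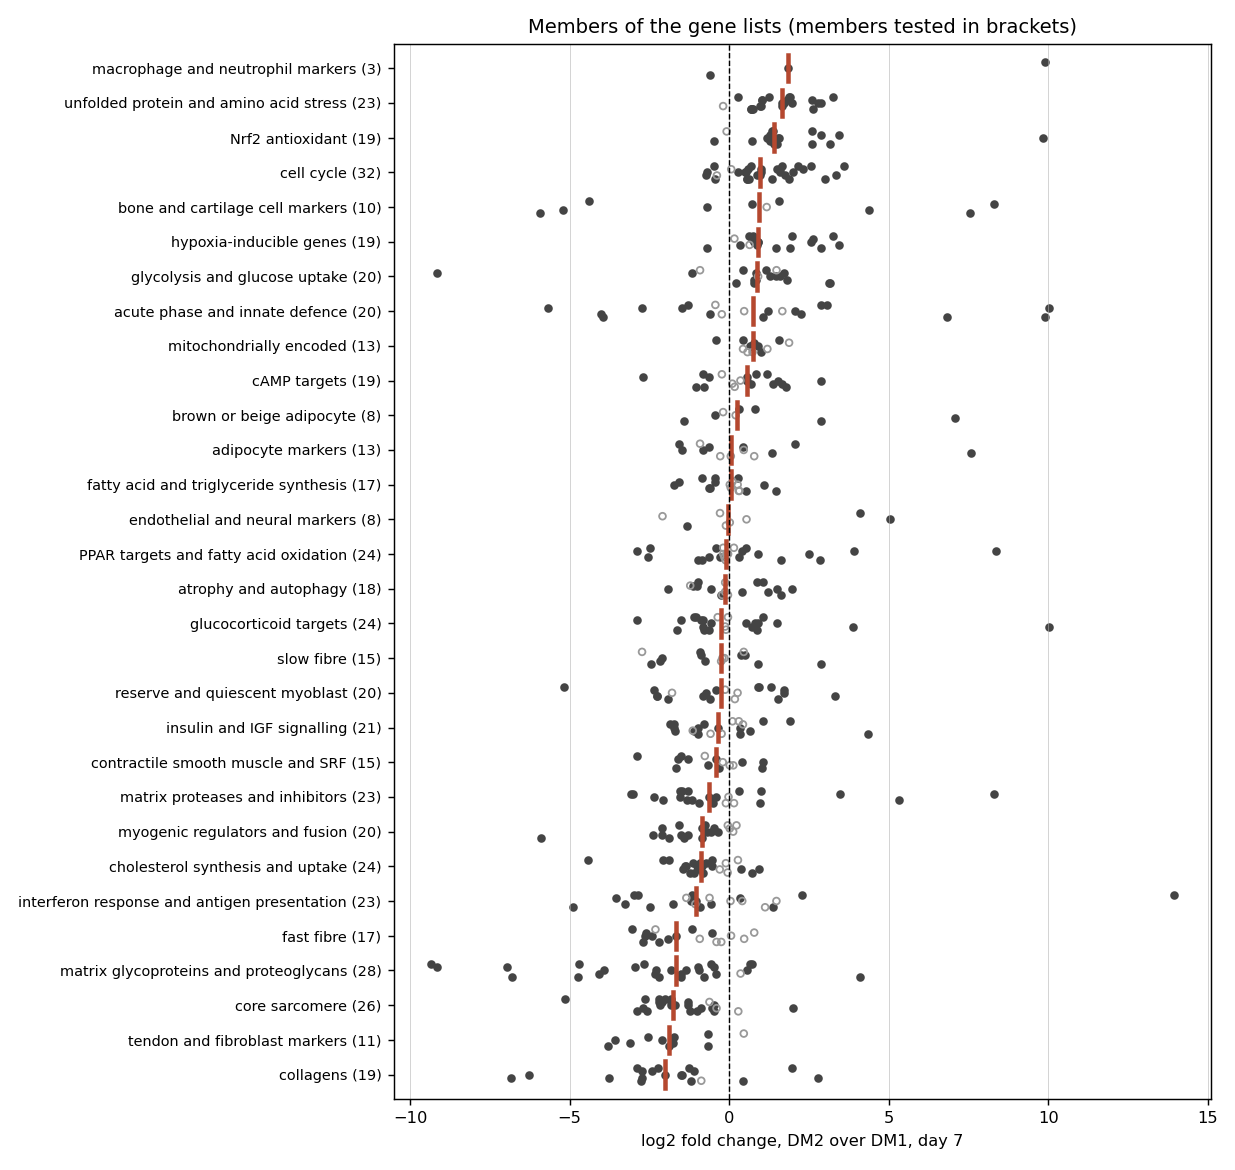
Log2 fold change of DM2 over DM1 at day 7 for each tested member of 30 gene lists, filled where the adjusted p is under 0.05 and open where not. A vertical bar marks each list's median, and a dashed line the median of all genes tested (-0.01). Medians run from 1.84 for the 3 tested macrophage and neutrophil markers and 1.65 for unfolded protein and amino acid stress to -2.03 for collagens.

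Genes of the unfolded protein and amino acid stress responses rose almost throughout. Of 23 members tested 22 were higher in DM2 and 0 lower, 15 of them by at least 2-fold, with a median of 1.65. Hspa5 (BiP), the main chaperone of the ER, had 3752 and 3096 CPM in DM2, against 866 and 1196 CPM in DM1, and a log2 fold change of 1.73 ± 0.14 (adjusted p = 5.66e-07). Ero1l, the oxidase that drives disulfide formation, had 1667 and 1586 CPM in DM2, against 143 and 201 CPM in DM1, a change of 3.24 ± 0.14 (adjusted p = 4.01e-09). Sdf2l1, a partner of Hspa5, had 97.5 and 87.9 CPM in DM2, against 11.2 and 14.1 CPM in DM1. Both DM2 libraries were above both DM1 libraries for these 3 genes, and the same held for the regulators named next. Ddit3 (CHOP), a transcription factor of the late stress response, had 207 and 233 CPM in DM2, against 33.7 and 36.9 CPM in DM1, a change of 2.64 ± 0.095. Trib3, a pseudokinase induced by Ddit3 and Atf4, had 204 and 222 CPM in DM2, against 32.7 and 29.6 CPM in DM1, a change of 2.77 ± 0.16. The hormone Fgf21, named after its value was seen, was the 1 member that missed the test, at -0.19 ± 0.21 (adjusted p = 0.466).

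Promoters of this list were searched for known stress elements on both strands, over the 250 bases before each gene's start in RefSeq (GRCm38.p6). The ER stress element, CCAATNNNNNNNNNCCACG, is known to be bound by NF-Y and Atf6. It was in 3 of the 20 list promoters with a sequence, those of Hspa5, Hsp90b1 and Creld2, and in 33 of 27025 promoters in all (0.122%), or 0.154% of those of genes tested. Hsp90b1, the ER form of Hsp90, and Creld2, a secreted ER stress protein, are named here after their values were seen. Hsp90b1 had 2452 and 1851 CPM in DM2, against 1127 and 1420.1 CPM in DM1, a change of 0.76 ± 0.13. Creld2 had 159 and 139 CPM in DM2, against 39.5 and 44.5 CPM in DM1, a change of 1.83 ± 0.13. The amino acid response element, searched as TGATGNAAN, was in 6 of the 20, against 3.51% of all promoters and 1.96% of those of genes tested. In all, 7 elements were searched over 30 lists, and each is reported with the list it is known from. The 3 promoters with the ER stress element are shown because their genes rose in the same libraries. They run 5′ to 3′ on the strand of the gene, with the matches in capitals, and lie at chr2:34771840-34772089 (plus strand, 1 match), chr10:86705445-86705694 (minus strand, 2 matches) and chr15:88819396-88819645 (plus strand, 1 match). A match describes these letters only and is no evidence of binding.
Hspa5: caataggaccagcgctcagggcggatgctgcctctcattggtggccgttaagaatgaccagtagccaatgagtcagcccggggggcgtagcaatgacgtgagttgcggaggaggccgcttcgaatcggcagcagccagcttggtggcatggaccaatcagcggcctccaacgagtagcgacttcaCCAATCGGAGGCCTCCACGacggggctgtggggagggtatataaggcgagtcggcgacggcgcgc
Hsp90b1: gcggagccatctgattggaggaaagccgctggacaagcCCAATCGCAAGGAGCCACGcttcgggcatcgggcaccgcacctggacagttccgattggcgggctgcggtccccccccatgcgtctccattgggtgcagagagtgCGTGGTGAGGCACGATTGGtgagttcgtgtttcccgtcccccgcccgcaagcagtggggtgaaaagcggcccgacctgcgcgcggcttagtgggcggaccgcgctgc
Creld2: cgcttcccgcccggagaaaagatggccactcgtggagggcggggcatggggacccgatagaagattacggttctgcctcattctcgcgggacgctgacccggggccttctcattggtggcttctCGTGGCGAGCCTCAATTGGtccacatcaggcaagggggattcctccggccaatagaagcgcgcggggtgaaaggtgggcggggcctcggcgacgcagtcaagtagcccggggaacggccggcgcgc

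Glucose uptake and glycolysis genes were higher in DM2, and the gene of their best known brake was far lower. Txnip is an arrestin-like protein that removes glucose transporters from the cell surface, and its gene is known to respond to glucose through Mlxipl and its relative Mlxip. It had 1.20 and 1.40 CPM in DM2, against 681 and 818 CPM in DM1, a log2 fold change of -9.16 ± 0.21 (adjusted p = 1.81e-10). The glucose transporter Slc2a1 (GLUT1) had 814 and 919.6 CPM in DM2, against 101 and 91.3 CPM in DM1, a change of 3.17 ± 0.099. Hexokinase Hk2, which traps glucose in the cell, had 731 and 807 CPM in DM2, against 97.1 and 77.9 CPM in DM1, a change of 3.14 ± 0.12. Neither medium's range came near the other's for these 3 genes. Of 20 tested members of the list 15 rose and 2 fell, with a median of 0.87. The isoforms of phosphofructokinase parted. The liver form Pfkl had 684 and 773 CPM in DM2, against 213 and 204 CPM in DM1, a rise of 1.80 ± 0.094, while the muscle form Pfkm had 55.4 and 57.7 CPM in DM2, against 130.2 and 122 CPM in DM1, a change of -1.16 ± 0.098. The lactate exporter Slc16a3 had 75.6 and 87.9 CPM in DM2, against 24.1 and 25.8 CPM in DM1, 3.28-fold higher. Gapdh is left without a value because its reads can be split with many pseudogenes.

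The Txnip promoter is shown because its glucose element is well described and its gene changed so far. A strict form of the carbohydrate response element, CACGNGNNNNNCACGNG, written after the element of Txnip itself and searched on both strands, was in 14 of 27025 promoters (0.0518%), in 0.0962% of those of genes tested and in 1 of 18 promoters of the glycolysis list. The sequence, 5′ to 3′ with the match in capitals, lies at chr3:96557707-96557956 on the plus strand (RefSeq, GRCm38.p6).
Txnip: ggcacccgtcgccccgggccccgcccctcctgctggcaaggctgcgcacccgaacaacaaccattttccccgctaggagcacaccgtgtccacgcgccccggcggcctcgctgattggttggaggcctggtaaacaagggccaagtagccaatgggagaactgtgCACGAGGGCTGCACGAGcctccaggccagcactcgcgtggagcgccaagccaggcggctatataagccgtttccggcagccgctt

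Genes known to be induced by hypoxia were higher too. Of 19 members 16 rose and 1 fell, with a median of 0.90. Ero1l and the heme oxygenase Hmox1 belong to this list as well as to others. Ndrg1, a gene of stress and differentiation, had 4500.2 and 4945 CPM in DM2, against 368 and 503 CPM in DM1, a change of 3.44 ± 0.16 (adjusted p = 8.31e-09). The lipid droplet protein Hilpda had 49.4 and 60.9 CPM in DM2, against 8.34 and 9.39 CPM in DM1, a change of 2.64 ± 0.17. The mitophagy receptor Bnip3 had 448 and 446 CPM in DM2, against 106 and 121 CPM in DM1, a change of 1.98 ± 0.092. The peptide hormone Adm was the 1 member that fell, with 7.15 and 6.58 CPM in DM2, against 8.66 and 13.6 CPM in DM1 (adjusted p = 0.0365). The hypoxia response core ACGTG was in 9 of 16 promoters of the list, against 16.6% of all promoters and 21.4% of those of genes tested. This short core was not particular to the list. It was in 5 of 7 brown or beige fat promoters and 8 of 18 glycolysis promoters, but in 1 of 19 of the PPAR and oxidation list.

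Antioxidant genes known to be driven by Nrf2 rose in 17 of 19 cases, with 1 lower and a median of 1.40. Hmox1, which degrades heme, had 208 and 241 CPM in DM2, against 27.9 and 32.8 CPM in DM1, a change of 2.89 ± 0.13. The glutathione transferase Gsta1 had 107 and 120.3 CPM in DM2, against 7.87 and 13.3 CPM in DM1, and its close paralog Gsta2 135 and 164 CPM in DM2, against 13.8 and 19.6 CPM in DM1, a pair that can share reads. Gsta3, of the same family, had 4.48 and 4.28 CPM in DM2, against 0 and 0 CPM in DM1 and was at least 37.7-fold higher. The 1 fall was in another transferase, Gstm1, with 87.3 and 90.5 CPM in DM2, against 107 and 143 CPM in DM1, a change of -0.49 ± 0.12. Osgin1, named after its value was seen, missed the test (adjusted p = 0.602). The antioxidant response element, searched as TGACNNNGCA, was in 1 of 15 promoters of the list (Gsta3). It was in 2.40% of all promoters and 2.14% of those of genes tested. Sqstm1, an autophagy receptor that also frees Nrf2 from its inhibitor, had 1764 and 1949.5 CPM in DM2, against 592 and 611 CPM in DM1, a change of 1.63 ± 0.11.

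Replication genes stood higher in DM2 than in DM1 after 7 days. Of 32 cell cycle genes 26 rose and 4 fell, with a median of 0.97. Cdc6, which loads the replicative helicase, had 15.3 and 14.4 CPM in DM2, against 1.32 and 1.09 CPM in DM1, a change of 3.61 ± 0.17 (adjusted p = 1.06e-08). The helicase subunit Mcm3 had 61.8 and 62.6 CPM in DM2, against 7.30 and 4.72 CPM in DM1, a change of 3.36 ± 0.17. Mcm5, of the same hexamer, had 57.7 and 62.6 CPM in DM2, against 9.16 and 5.93 CPM in DM1, and Mcm2 had 99.4 and 104 CPM in DM2, against 19.5 and 14.6 CPM in DM1. No DM2 library overlapped the DM1 libraries for these replication genes, as was so for most genes tested. Some other members of the list fell or missed the test. The proliferation antigen Mki67 had 106 and 91.6 CPM in DM2, against 122 and 136 CPM in DM1 and missed the test (-0.39 ± 0.18, adjusted p = 0.087). The mitotic cyclin Ccnb2 had 28.0 and 29.5 CPM in DM2, against 48.6 and 43.8 CPM in DM1, a change of -0.69 ± 0.091. The G1/S cyclin Ccne1 had 5.91 and 4.16 CPM in DM2, against 8.34 and 8.51 CPM in DM1, a change of -0.74 ± 0.15. In growing cells at day 0 Mcm3 had 176 and 167 CPM and Mki67 585 and 605 CPM, above both media at day 7.

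The E2F site, searched as TTTNGCGC on both strands, was in 3 of 25 promoters of the cell cycle list (Cdk1, Mcm5 and Mcm6), against 1.15% of all promoters and 2.04% of those of genes tested. The promoter of Mcm5 is shown as the example among the raised helicase genes, 5′ to 3′, at chr8:75109259-75109508 on the plus strand (RefSeq, GRCm38.p6). Its 2 matches, 1 on each strand, overlap in the capitals.
Mcm5: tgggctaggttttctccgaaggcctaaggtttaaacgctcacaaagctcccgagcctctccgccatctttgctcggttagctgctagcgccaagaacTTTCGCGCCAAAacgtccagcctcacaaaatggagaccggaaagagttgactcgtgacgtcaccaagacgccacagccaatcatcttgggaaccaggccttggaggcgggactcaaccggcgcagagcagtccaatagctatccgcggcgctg

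Structural muscle genes were lower in DM2. Of 26 sarcomere genes tested 22 fell and 1 rose, with a median of -1.76. Titin (Ttn), the molecular spring of the sarcomere, had 82.8 and 64.5 CPM in DM2, against 534 and 554 CPM in DM1, a change of -2.88 ± 0.24. The Z-disc actin crosslinker Actn3, of fast fibres, had 44.0 and 52.4 CPM in DM2, against 361 and 266 CPM in DM1, a change of -2.70 ± 0.15. Tcap, which anchors titin, had 0.0376 and 0.0389 CPM in DM2, against 1.39 and 1.63 CPM in DM1, which is 1 count in each DM2 library. Skeletal actin Acta1, the thin filament itself, had 243 and 247 CPM in DM2, against 561 and 422 CPM in DM1, a change of -1.01 ± 0.16. All of these were lower in each DM2 library than in either DM1 library. The 1 rise was in Mybpc1, a myosin-binding protein of slow fibres, with 6.74 and 5.80 CPM in DM2, against 1.78 and 1.34 CPM in DM1, a change of 2.00 ± 0.36.

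Fast-fibre genes were lower, while slow-fibre genes were near the shares of all genes. In the fast-fibre list 10 of 17 fell and 0 rose, with a median of -1.66. The slow-fibre list had 6 of 15 lower and 4 higher, with a median of -0.25. Slow myosin Myh7 had 3.46 and 2.68 CPM in DM2, against 20.7 and 12.6 CPM in DM1, a change of -2.44 ± 0.41. Slow troponin Tnnt1 had 7.90 and 8.91 CPM in DM2, against 43.8 and 31.1 CPM in DM1, a change of -2.16 ± 0.19. The mitochondrial coactivator Ppargc1a went the other way, with 25.8 and 23.3 CPM in DM2, against 3.10 and 3.59 CPM in DM1, a change of 2.88 ± 0.18. Of 13 mitochondrially encoded genes, whose reads can be shared with nuclear copies, 7 rose and 1 fell. The complex I subunit mt-Nd2 had 2216 and 2028 CPM in DM2, against 661 and 781 CPM in DM1, a change of 1.56 ± 0.16.

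The regulators of myogenesis were lower as well, with a median nearer to 0. In the list of myogenic regulators and fusion genes 16 of 20 fell and 0 rose, with a median of -0.85. Myogenin (Myog), the driver of terminal differentiation, had 32.0 and 32.2 CPM in DM2, against 53.5 and 40.9 CPM in DM1, a change of -0.56 ± 0.14 (adjusted p = 0.00389). Myod1, with levels given above, changed by -0.86 ± 0.17. The homeobox factor Six4 had 24.8 and 23.2 CPM in DM2, against 98.9 and 107 CPM in DM1, a change of -2.10 ± 0.11. The fusion peptide myomixer, annotated as Gm7325, had 5.76 and 6.38 CPM in DM2, against 28.3 and 23.4 CPM in DM1, a change of -2.09 ± 0.15.

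Reserve and quiescent myoblast genes went both ways, with 7 of 20 higher and 9 lower. Spry1, a brake on growth factor signals in quiescent satellite cells, had 21.2 and 20.9 CPM in DM2, against 2.53 and 1.71 CPM in DM1, a change of 3.30 ± 0.25. The inhibitor of differentiation Id3 had 17.8 and 18.9 CPM in DM2, against 6.91 and 4.13 CPM in DM1, a change of 1.72 ± 0.24. The Notch ligand Dll1 had 1.84 and 2.18 CPM in DM2, against 9.48 and 9.89 CPM in DM1, a change of -2.27 ± 0.13. Smooth muscle genes were more often lower than higher, with 8 of 15 lower, 3 higher and a median of -0.42. Smooth muscle actin Acta2, which differentiating myoblasts also make, had 645 and 663 CPM in DM2, against 360.3 and 284 CPM in DM1, a rise of 1.02 ± 0.14. Transgelin (Tagln), of the same contractile programme, had 4.93 and 6.19 CPM in DM2, against 43.0 and 40.0 CPM in DM1, a change of -2.90 ± 0.20.

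Although DM2 carries agents aimed at fat cell formation, the adipocyte list showed no common direction at day 7. Of its 22 members 13 had enough counts to be tested, with 4 higher, 4 lower and a median of 0.05, or -0.20 with library totals. The master regulators of fat cells were lower in DM2. Pparg had 9.67 and 12.3 CPM in DM2, against 18.3 and 20.3 CPM in DM1, a change of -0.81 ± 0.13. Cebpa had 7.34 and 5.49 CPM in DM2, against 20.0 and 18.3 CPM in DM1, a change of -1.58 ± 0.22. Genes of lipid handling were divided. Lipoprotein lipase Lpl had 415 and 349.7 CPM in DM2, against 88.0 and 96.4 CPM in DM1, a change of 2.05 ± 0.12. The fatty acid carrier Fabp4 had 7.38 and 6.11 CPM in DM2, against 1.85 and 3.51 CPM in DM1, a change of 1.33 ± 0.31. The droplet coat protein Plin1 had 0.979 and 0.856 CPM in DM2, against 0 and 0 CPM in DM1, at least 7.90-fold higher. The hormone-sensitive lipase Lipe, which releases stored fat, had 3.05 and 3.19 CPM in DM2, against 8.98 and 8.43 CPM in DM1, a change of -1.48 ± 0.15.

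The products that define a fat cell were barely detected. Adiponectin (Adipoq), a hormone of fat cells, had 9 and 4 counts in DM2, against 1 and 0 in DM1. The droplet protein Cidec had 10 and 18 counts in DM2, against 0 and 0 in DM1. The leptin gene Lep, Pck1 and Aqp7 had 0 counts in all 4 libraries. Summed over the list the level was 544 and 485 CPM in DM2, against 241 and 274 CPM in DM1. Most of the DM2 sum was Lpl, with 415 and 349.7 CPM in DM2, against 88.0 and 96.4 CPM in DM1. The remaining members summed to less in DM2 than in DM1. Brown and beige fat markers also went both ways, with 4 of 8 tested members higher and 2 lower. The defining genes Ucp1 and Prdm16 had 0 counts in all 4 libraries. Dio2, which activates thyroid hormone, had 17.7 and 15.2 CPM in DM2, against 10.8 and 7.89 CPM in DM1. The fatty acid elongase Elovl3 had 0.565 and 0.739 CPM in DM2, against 0 and 0 CPM in DM1, at least 5.62-fold higher. The cytochrome oxidase subunit Cox7a1 had 0.489 and 0.739 CPM in DM2, against 1.67 and 1.59 CPM in DM1, a change of -1.40 ± 0.33.

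Targets of the cocktail's other components were divided at day 7. In the PPAR and fatty acid oxidation list 9 of 24 rose and 8 fell. The mitochondrial thioesterase Acot2 had 63.2 and 63.1 CPM in DM2, against 8.16 and 9.56 CPM in DM1, a change of 2.83 ± 0.14. Pdk4, the kinase that shuts pyruvate oxidation, had 12.8 and 11.2 CPM in DM2, against 77.0 and 99.8 CPM in DM1, a change of -2.88 ± 0.13. Of 24 glucocorticoid targets 9 rose and 11 fell, although DM2 held dexamethasone and DM1 held none added. Tsc22d3 (GILZ), a classical target, had 232 and 271 CPM in DM2, against 527 and 558 CPM in DM1, a change of -1.11 ± 0.096. The glucocorticoid receptor Nr3c1 had 78.1 and 70.7 CPM in DM2, against 125 and 136 CPM in DM1, a change of -0.81 ± 0.10. Hsd11b1, which reactivates inert glucocorticoid, had 43.6 and 43.1 CPM in DM2, against 139.6 and 131 CPM in DM1, a change of -1.65 ± 0.11. All 3 were lower in each DM2 library than in either DM1 library.

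Other targets of the same hormone were raised. The zinc finger factor Zbtb16 had 11.9 and 10.3 CPM in DM2, against 1.07 and 0.417 CPM in DM1, 14.7-fold higher and 26.3-fold without DM1 replicate 1. The iron-binding lipocalin Lcn2 had 4.82 and 5.17 CPM in DM2, against 0 and 0 CPM in DM1, at least 43.1-fold higher. Of 19 cAMP targets 10 rose and 5 fell. The phosphodiesterase Pde4b, which degrades cAMP, had 213 and 183 CPM in DM2, against 61.7 and 63.3 CPM in DM1, a change of 1.66 ± 0.10. The growth factor Areg had 19.3 and 17.9 CPM in DM2, against 4.99 and 5.93 CPM in DM1, a change of 1.77 ± 0.15. The small GTPase Gem had 9.97 and 9.45 CPM in DM2, against 18.5 and 21.5 CPM in DM1, a change of -1.04 ± 0.12. The cAMP response element, searched as TGACGTCA, was in 2 of 16 promoters of the cAMP list (Areg and Dusp1). It was in 1.62% of all promoters and 2.74% of those of genes tested.

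Cholesterol synthesis genes were lower in DM2 in 17 of 24 cases, with 3 higher and a median of -0.89. Hmgcs1, at the entry of the pathway, had 60.9 and 50.9 CPM in DM2, against 180.1 and 234 CPM in DM1, a change of -1.89 ± 0.13. Squalene epoxidase Sqle went against its pathway, with 319.9 and 311 CPM in DM2, against 181 and 201 CPM in DM1, a rise of 0.72 ± 0.074. Fatty acid and triglyceride synthesis was divided, with 4 of 17 higher and 7 lower. Dgat2, which makes triglyceride, had 37.8 and 40.0 CPM in DM2, against 16.4 and 11.9 CPM in DM1, a change of 1.46 ± 0.14. The desaturase Fads2 had 35.6 and 35.5 CPM in DM2, against 102 and 108 CPM in DM1, a change of -1.56 ± 0.067.

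Genes around insulin and IGF also parted, with 6 rises and 9 falls among 21. The IGF-binding protein Igfbp3 had 30.6 and 28.2 CPM in DM2, against 1.43 and 1.46 CPM in DM1, a change of 4.35 ± 0.31. Igfbp5, the most abundant of the binding proteins shown, had 4863 and 4972 CPM in DM2, against 1589 and 1039 CPM in DM1, a change of 1.90 ± 0.18. The other 3 members shown went down. Igfbp4 had 47.0 and 40.3 CPM in DM2, against 166 and 122 CPM in DM1, a change of -1.72 ± 0.14. Igfbp6 had 42.7 and 49.7 CPM in DM2, against 148 and 149 CPM in DM1, a change of -1.68 ± 0.12. Igfbp7 had 21.6 and 23.1 CPM in DM2, against 79.3 and 82.1 CPM in DM1, a change of -1.85 ± 0.15. Among 18 atrophy and autophagy genes 7 were higher and 6 lower. The muscle ubiquitin ligase Trim63 had 0.866 and 1.09 CPM in DM2, against 3.53 and 3.92 CPM in DM1, a change of -1.93 ± 0.19. The lysosomal protease Ctsl had 1750.4 and 1678 CPM in DM2, against 786 and 687 CPM in DM1, a change of 1.22 ± 0.095.

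Interferon-response genes were more often lower than higher in DM2. Of 23 tested 12 fell and 4 rose, with a median of -1.03. The antiviral gene Ifit2 had 1.81 and 1.44 CPM in DM2, against 17.7 and 20.2 CPM in DM1, a change of -3.54 ± 0.16 (adjusted p = 6.00e-09). The RNA sensor Ddx58 (RIG-I) had 2.94 and 2.61 CPM in DM2, against 21.8 and 22.5 CPM in DM1, a change of -3.00 ± 0.12. Genes of acute phase and innate defence divided, with 9 of 20 higher and 7 lower. The acute-phase carrier Orm1 had 36.7 and 35.1 CPM in DM2, against 10.9 and 6.14 CPM in DM1. Its near-identical paralog Orm2, with which it can share reads, had 2.97 and 4.16 CPM in DM2, against 0.392 and 0.459 CPM in DM1. Complement factor B (Cfb) had 0.414 and 0.584 CPM in DM2, against 9.34 and 6.89 CPM in DM1, a change of -4.01 ± 0.37. Serping1, the inhibitor of C1, had 0.0753 and 0.0778 CPM in DM2, against 4.88 and 3.46 CPM in DM1. Coagulation factor V (F5), made mainly by liver, was chosen for its step between days and had 24.1 and 19.8 CPM in DM2, against 0.285 and 0.292 CPM in DM1, a change of 6.23 ± 0.34.

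S100a8 was abundant in DM2 while most myeloid markers were at or near 0. Its partner S100a9, picked after its values were seen, had 4 and 1 counts in DM2, against 0 and 0 in DM1. The leukocyte gene Ptprc had 0 and 1 counts in DM2, against 0 and 0 in DM1. The myeloid genes Tyrobp, Adgre1, Mpo, Elane, C1qa, C1qb and C1qc had 0 counts in all 4 libraries. Only 3 of the 20 macrophage and neutrophil markers had enough counts to be tested, and 2 rose and 1 fell. Beside S100a8, the lysosomal protein Cd68, of macrophages, had 6.17 and 6.77 CPM in DM2, against 1.03 and 2.59 CPM in DM1. It was 3.59-fold higher, and 6.23-fold without DM1 replicate 2. The endotoxin co-receptor Cd14 had 6.55 and 7.04 CPM in DM2, against 11.1 and 9.60 CPM in DM1, a change of -0.61 ± 0.15. The list summed to 202 and 163 CPM in DM2, most of it S100a8, against 12.8 and 12.7 CPM in DM1.

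Markers of bone, vessel and nerve gave no common picture. Bone and cartilage markers had 5 of 10 higher and 4 lower, and the count of 5 was 3 without DM2 replicate 2, without DM1 replicate 1 or without DM1 replicate 2. The chondrogenic factor Sox9 had 126 and 133 CPM in DM2, against 51.4 and 36.4 CPM in DM1, a change of 1.55 ± 0.14. The bone regulator Runx2 had 52.2 and 48.3 CPM in DM2, against 73.3 and 87.9 CPM in DM1, a change of -0.68 ± 0.11. Ibsp and Acan, defining genes of bone and cartilage matrix, had no more than 1 count in any of the 4 libraries. Of 8 tested endothelial and neural markers 2 rose and 1 fell. The endothelial receptor Kdr had 1.77 and 1.09 CPM in DM2, against 0.0356 and 0.0417 CPM in DM1, a ratio of 37.3-fold (95% counting interval 9.98 to 314). The clotting glycoprotein Vwf, of endothelium and platelets, had 3.73 and 4.20 CPM in DM2, against 0.321 and 0.125 CPM in DM1. By the fit it was 17.1-fold higher, and 30.6-fold without DM1 replicate 1. The ratio of scaled counts in the latter setting was 31.6-fold (95% counting interval 10.7 to 155). The vascular cadherin Cdh5 had 0.753 and 0.623 CPM in DM2, against 1.82 and 1.63 CPM in DM1, a change of -1.32 ± 0.36. The endothelial adhesion gene Pecam1 had 0.452 and 0.389 CPM in DM2, against 0.178 and 0.668 CPM in DM1, with no call (0.02 ± 1.44, adjusted p = 0.994). The neural genes Sox10 and Rbfox3 had at most 1 count in a library.

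The same media already differed at day 2, in other libraries. At day 2, 6290 genes passed (39.4%), 2797 higher (17.5%) and 3493 lower (21.9%) in DM2. Genes higher in DM2 at both days numbered 935, which is 22.1% of those higher at day 7 and 33.4% of those higher at day 2. Genes lower at both numbered 1625, or 32.4% of the falls at day 7 and 46.5% of those at day 2. Another 990 were higher at day 7 and lower at day 2, or 28.3% of the falls at day 2. A further 973 were lower at day 7 and higher at day 2, or 34.8% of the rises at day 2. Among all genes tested 26.5% were higher and 31.4% lower at day 7. A test of the difference between the days passed for 7830 genes (49.0%). For 3678 of them (23.0%) the ratio of DM2 to DM1 was higher at day 7 than at day 2, and for 4152 (26.0%) it was lower. With library totals in place of TMM the share of higher among them was 33.3%.

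Stress and cell cycle genes mostly changed sides between the days. In the stress list 22 of 23 members were higher in DM2 at day 7, whereas at day 2 there were 2 higher and 14 lower. For 22 of them the ratio was higher at day 7 by the test of the difference. Hspa5 had 546 and 497 CPM in DM2 at day 2, against 703 and 667 CPM in DM1 (adjusted p of the difference between days = 3.01e-06). Of the cell cycle genes 4 were higher and 20 lower at day 2, and 24 had a higher ratio at day 7. Mcm3 had 25.6 and 24.8 CPM in DM2 at day 2, against 107 and 111 CPM in DM1. Set beside day 7, its level was higher in DM2 and lower in DM1 than 5 days before (adjusted p of the difference = 1.43e-08).

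Glucocorticoid targets, divided at day 7, were mostly higher in DM2 at day 2. At day 7, 9 of 24 were higher and 11 lower, against 18 higher and 2 lower at day 2, with a median of -0.24 at day 7 and 2.13 at day 2, and 17 had a lower ratio at day 7. Tsc22d3 had 595 and 560.1 CPM in DM2 at day 2, against 52.4 and 49.9 CPM in DM1. Pdk4 had 113 and 122 CPM in DM2 at day 2, against 22.5 and 24.0 CPM in DM1 (adjusted p of the difference = 4.13e-09). Txnip, at day 2, had 517 and 578 CPM in DM2, against 180.2 and 209 CPM in DM1. All 3 were thus higher in DM2 at day 2 and lower in DM2 at day 7. For the sarcomere the direction was the same at both days, with 0 higher and 15 lower of 26 at day 2. Collagens were 2 higher and 10 lower of 19 at day 2, and 15 had a lower ratio at day 7. Adipocyte markers, 4 higher and 4 lower of 13 at day 7, were 8 higher and 2 lower at day 2. For 7 of them the ratio was lower at day 7, and for 2 it was higher.

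**Figure D3:**
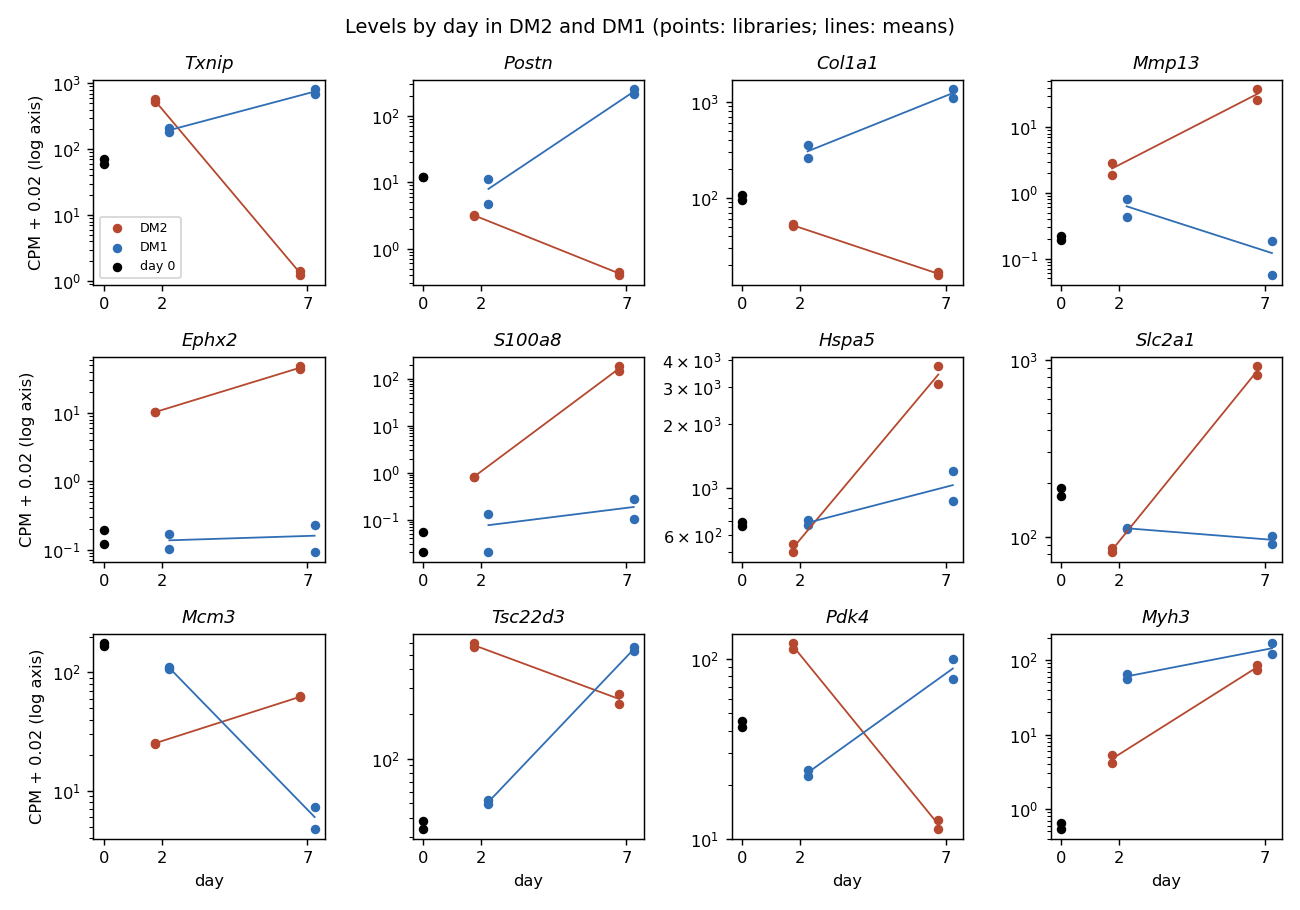
Levels of 12 genes by day in DM2 and DM1, in CPM plus 0.02 on log axes, with points for libraries, lines through the means of 2 libraries, and day 0 cells in black. Txnip, Tsc22d3 and Pdk4 are higher in DM2 at day 2 and lower in DM2 at day 7, while Hspa5, Slc2a1 and Mcm3 cross the other way.

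**Figure D4:**
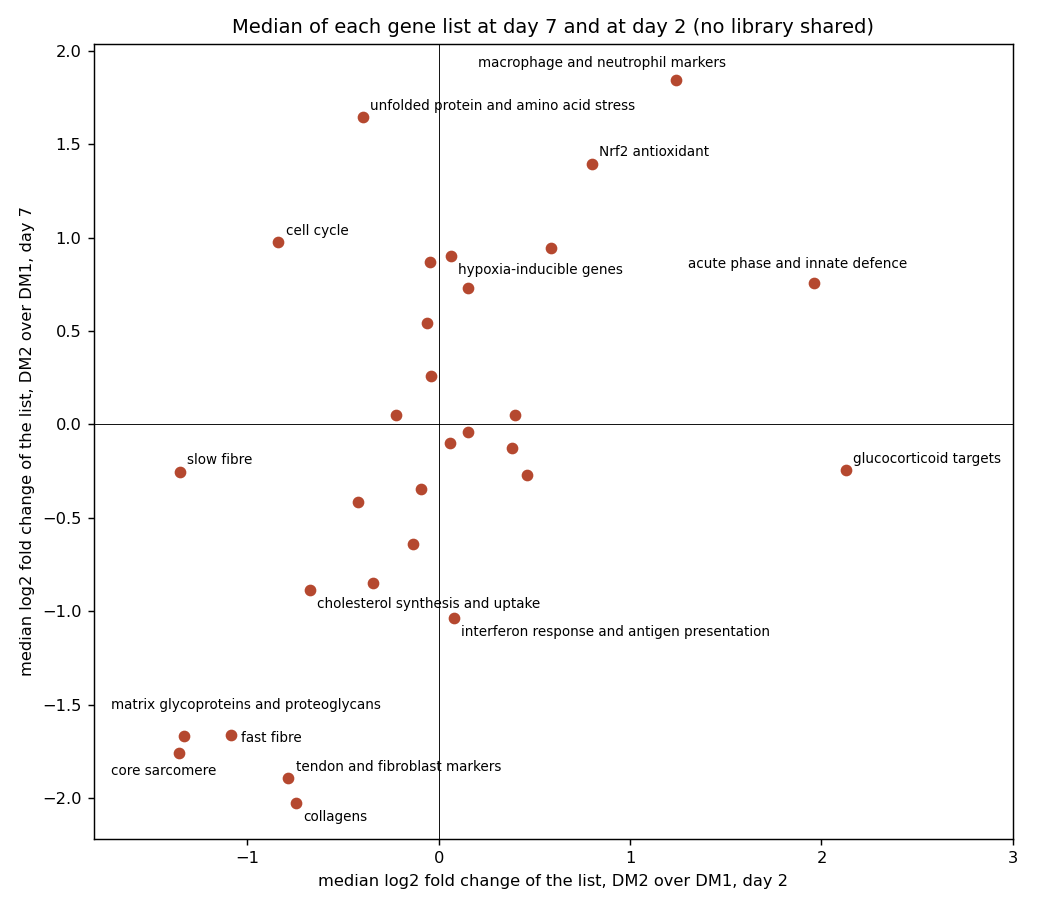
Median log2 fold change of DM2 over DM1 for each of 30 gene lists at day 7 (vertical axis) and at day 2 (horizontal axis), with 1 point per list and the most distant lists named. Glucocorticoid targets lie at -0.24 at day 7 and 2.13 at day 2, and unfolded protein and amino acid stress at 1.65 at day 7 and -0.39 at day 2.

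DM3 at day 7 shares its cocktail with DM2 and its serum with DM1, so its values are set beside theirs. The comparisons of DM3 with DM1 and of DM2 with DM3 use libraries of the main comparison, and only their own values are given. DM3 against DM1 gave 7622 genes (47.7%), 3620 higher (22.7%) and 4002 lower (25.1%). DM2 against DM3 gave 8420 (52.7%), 4027 higher (25.2%) and 4393 lower (27.5%).

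Stress genes in DM3 were mostly near or below DM1, and cell cycle genes were more often below DM1 than above it. Ero1l had 92.7 and 100.3 CPM in DM3, and Hspa5 had 861 and 883 CPM. In the stress list 22 of 23 members were higher in DM2 than in DM3, while DM3 against DM1 gave 2 higher and 10 lower. The transporter Slc2a1 had 141 and 144 CPM in DM3, between DM2 and DM1. Ndrg1 had 151 and 184 CPM in DM3, below both. In the cell cycle list 31 of 32 members were higher in DM2 than in DM3, while DM3 against DM1 gave 4 higher and 18 lower. Mcm3 had 7.02 and 7.72 CPM in DM3, far below DM2 and near DM1.

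Collagens in DM3 lay mostly between the other media, while other matrix genes were closer to DM2. Postn had 15.1 and 14.7 CPM in DM3, Col1a1 87.7 and 105 CPM and Col3a1 2651 and 2725 CPM. DM2 against DM3 gave 12 of 19 collagens lower and 4 higher, and DM3 against DM1 gave 12 lower and 1 higher. For matrix glycoproteins DM2 against DM3 gave 11 of 28 lower and 7 higher, with a median of -0.11, and for proteases and inhibitors 8 of 23 lower and 11 higher, with a median of 0.14. Muscle genes stood highest in DM3. Acta1 had 13398 and 12529 CPM there, a log2 fold change of 4.72 ± 0.19 over DM1. Myog had 1110.0 and 995 CPM in DM3, 4.48 ± 0.15 over DM1. In the sarcomere list 24 of 26 were lower in DM2 than in DM3, and 22 were higher in DM3 than in DM1. Txnip had 464 and 466 CPM in DM3, and Tsc22d3 had 1113 and 1108 CPM. Ephx2 had 2.07 and 2.26 CPM in DM3, lower than in DM2 (log2 4.40 ± 0.26 for DM2 over DM3, adjusted p = 3.96e-08) and higher than in DM1 (log2 3.95 ± 0.37 for DM3 over DM1, adjusted p = 3.17e-06). Mmp13 had 0.507 and 0 CPM in DM3, and DM3 against DM1 did not pass for it (adjusted p = 0.43).

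**Figure D5:**
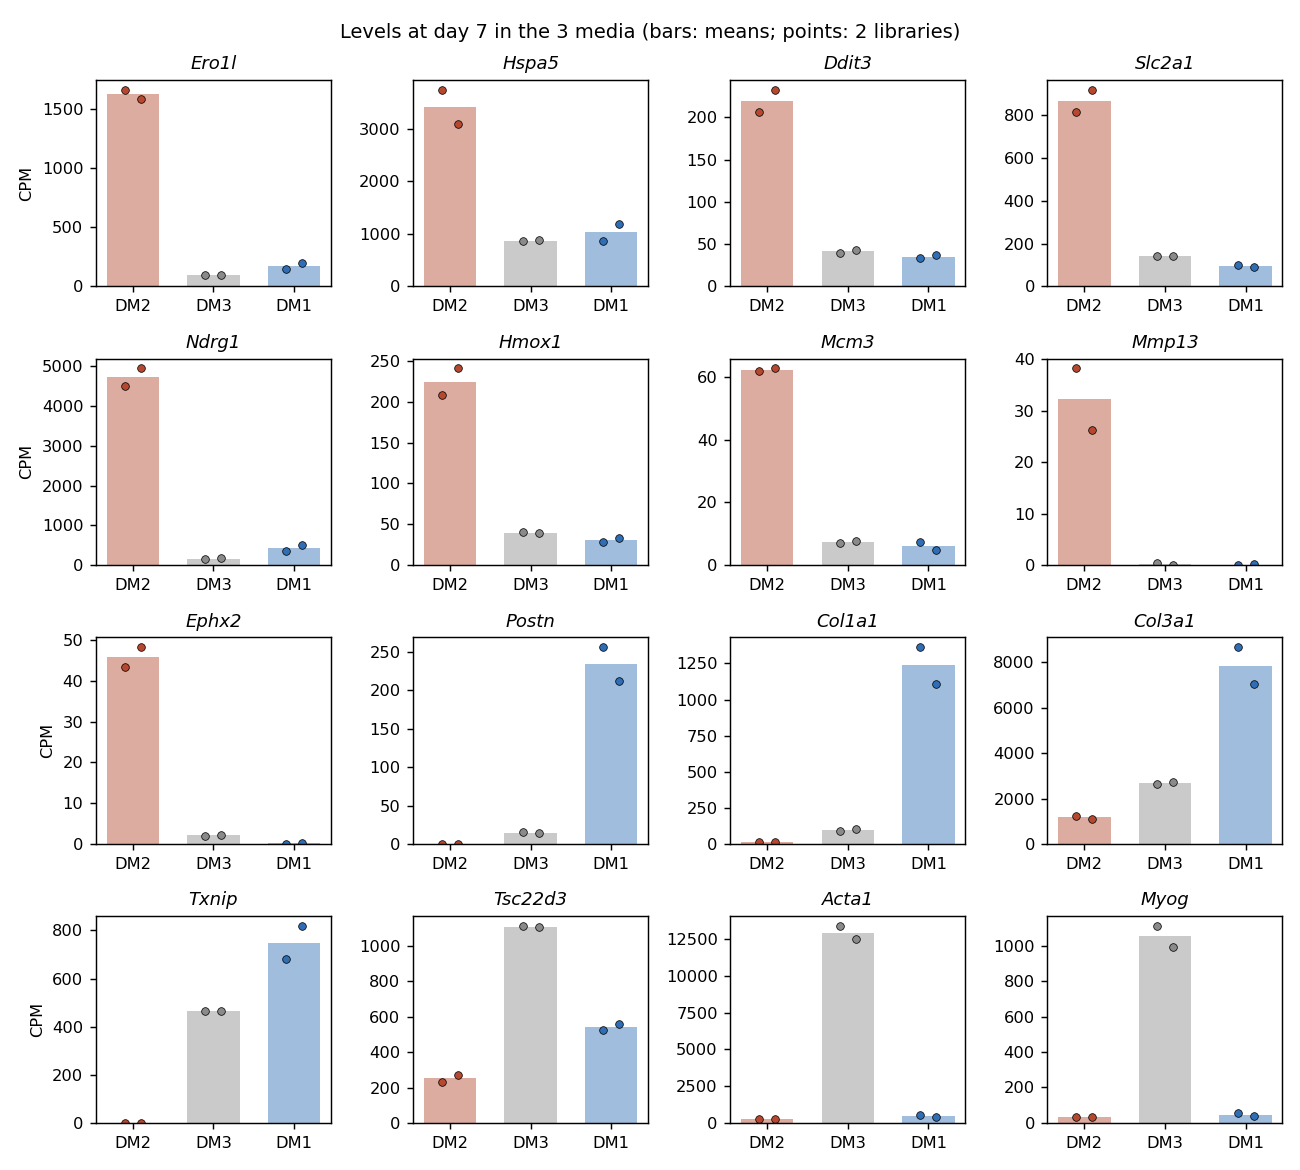
Level of 16 genes at day 7 in DM2, DM3 and DM1, in CPM on linear axes from 0, with bars for the means of 2 libraries and points for the libraries. Ero1l, Hspa5, Ddit3, Slc2a1, Ndrg1, Hmox1, Mcm3, Mmp13 and Ephx2 are highest in DM2, Postn, Col1a1, Col3a1 and Txnip in DM1, and Tsc22d3, Acta1 and Myog in DM3.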

How the data were processed

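Poly(A) RNA of C2C12 cells was sequenced as single reads. The authors deposited RSEM expected counts per gene for 14 libraries, not normalized. STAR 2.5.1b, RSEM 1.2.31 and GRCm38.p5 stand in the submitters' processing notes, and Gencode vM12 in their design text. Expected counts were rounded to whole numbers. Genes were filtered with filterByExpr, which kept 15973, scaled by TMM and fitted with edgeR 4.0.16 (limma 3.58.1, R 4.3.3; glmQLFit with robust estimation, glmQLFTest) over all 14 libraries in 7 groups, which leaves 7 residual degrees of freedom. P-values were adjusted over all genes tested, and the threshold was 0.05. Every count column matched a sample. Totals ran from 21907617 to 29784885 counts per library, and the floor of 3 counts was 0.102 to 0.132 CPM. Intervals and floors cover counting error only. The fit was run on simulated data in which a small set of genes changed by known folds, as many up as down. Such data do not cover a comparison in which most genes differ, as here.

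Gene lists and named genes were chosen with earlier results of these data known. The text names the 3 markers. It also names the 12 largest rises and 12 largest falls among called protein-coding genes. Those genes had a mean of at least 5 CPM and no overlap between groups. From each list come up to 4 called members in the main direction and 2 in the other. A further 19 genes were fixed by name. The last are the 6 largest differences each way between days that passed their test, under the same limits on type and level. Counts of untested list members are given where they define a cell type. Gene coordinates are GRCm38 from Gencode vM21, and promoter sequences are RefSeq GRCm38.p6. DESeq2 1.42.0, other scalings, no filter, the compared groups alone, a replicate block and leaving out each library were the alternatives. Replicate differences of DM2 and DM1 at day 7 correlated at -0.0602, so same-numbered libraries of the main comparison were not taken as pairs. Over all pairs of groups the correlation ran from -0.629 to 0.518.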

Additional observations from a re-analysis of the deposited data

Results flagged for a closer look

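The difference between DM2 and DM1 itself differed between day 7 and day 2 for 7830 genes by edgeR's test of the difference. The 12 genes with the largest such steps, 6 in each direction, follow with their adjusted p for the difference between days and the level of each group. They are protein-coding, had a mean of at least 5 CPM and passed that test. H2-M10.1, Pdcd1, Gfral and Ostn had whole groups at 0 counts. The standard error of their steps, worked back from the F of the test, ran from 6647 to 28231 and measures no spread. These genes could not be called and are left out, although their log2 steps were 10.2, 8.62, 7.34 and 7.26, against 6.83 for Nos2.

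Periostin (Postn, adjusted p = 4.65e-06) had 0.376 and 0.428 CPM in DM2, against 256 and 212 CPM in DM1 at day 7, and 3.25 and 3.09 CPM in DM2, against 11.1 and 4.76 CPM in DM1 at day 2. Crocc2 (2.36e-04) had 5.87 and 6.46 CPM in DM2, against 0 and 0 CPM in DM1 at day 7, and 0.521 and 0.42 CPM in DM2, against 0.126 and 0.075 CPM in DM1 at day 2. Nos2 (0.00167) had 28.9 and 37.7 CPM in DM2, against 0.249 and 0.334 CPM in DM1 at day 7, and 0.16 and 0.0382 CPM in DM2, against 0 and 0.188 CPM in DM1 at day 2. For these genes the gap between media was wider at day 7.

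Txnip (4.13e-10) had 1.20 and 1.40 CPM in DM2, against 681 and 818 CPM in DM1 at day 7, and 517 and 578 CPM in DM2, against 180.2 and 209 CPM in DM1 at day 2, so its direction turned. The peroxisomal oxidase Acox2 (2.93e-04) had 5.65 and 7.35 CPM in DM2, against 0.0356 and 0.125 CPM in DM1 at day 7, and 0 and 0 CPM in DM2, against 0.042 and 0.075 CPM in DM1 at day 2. The CD200 receptor relative Cd200r4 (3.58e-05) had 7.60 and 7.28 CPM in DM2, against 0.57 and 0.25 CPM in DM1 at day 7, and 0 and 0 CPM in DM2, against 0.294 and 0.263 CPM in DM1 at day 2. The trypsin gene Try5 (0.00175), 1 of several near-identical copies, had 29.7 and 29.5 CPM in DM2, against 0.285 and 0.25 CPM in DM1 at day 7, and 0.0401 and 0 CPM in DM2, against 0 and 0.075 CPM in DM1 at day 2.

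Coagulation factor V (F5, 2.00e-07) had 24.1 and 19.8 CPM in DM2, against 0.285 and 0.292 CPM in DM1 at day 7, and 0.481 and 0.916 CPM in DM2, against 1.51 and 1.20 CPM in DM1 at day 2. The protease inhibitor Serpina3m (1.46e-08), from a cluster of close paralogs, had 26.1 and 23.5 CPM in DM2, against 61.6 and 59.0 CPM in DM1 at day 7, and 8.17 and 8.47 CPM in DM2, against 0 and 0 CPM in DM1 at day 2. Orm1 (1.68e-05) had 36.7 and 35.1 CPM in DM2, against 10.9 and 6.14 CPM in DM1 at day 7, and 22.0 and 16.9 CPM in DM2, against 0 and 0 CPM in DM1 at day 2. The muscle heat shock protein Hspb7 (1.18e-07) had 0.753 and 0.895 CPM in DM2, against 21.8 and 32.5 CPM in DM1 at day 7, and 5.41 and 5.61 CPM in DM2, against 0.168 and 0.375 CPM in DM1 at day 2. Angptl7, an angiopoietin-like secreted protein (7.08e-07), had 0.339 and 0.311 CPM in DM2, against 15.6 and 25.5 CPM in DM1 at day 7, and 1.52 and 1.03 CPM in DM2, against 0.336 and 0.113 CPM in DM1 at day 2.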

How the results depend on the processing

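The count of genes changed at day 7 ran from 8753 (DESeq2) to 10007 (compared groups alone) around 9238 under the settings that kept every day 7 library, and from 7597 to 8123 when 1 library was left out. With the replicate block it was 9146, and the block moved none of the counts of genes changed by over 1.5 times, nor did any other setting. Split by direction, rises of at least 2-fold numbered 865 with library totals, against 1357. Leaving out replicate 2 of DM3 at day 2 was chosen after seeing the data and gave 9814. Counts ran from 3594 to 3893 for changes of at least 2-fold, from 4331 to 5318 at day 2 and from 6829 to 7389 for the difference between days when 1 library was left out. Pecam1, which was not called, changed sign, to -0.23 with library totals, -0.09 without DM2 replicate 1 and -0.66 without DM1 replicate 1, and stood at 1.22 without DM1 replicate 2; the cause was not tested. Of 188 named genes tested, 181 to 188 kept their direction and side of the threshold under the other settings and 173 to 178 without 1 library of the comparison. With 2 libraries per group, the spread is shared over all groups. Genes near the floor of 3 counts carry folds that 1 library can move.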

Other observations

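Annotation classes of RNA differed in direction at day 7. Their counts are to be read against 26.5% higher and 31.4% lower among all genes tested. Of 368 tested loci that the annotation marks as to be experimentally tested (TEC), 12 were higher and 192 lower in DM2, with a median log2 fold change of -1.66 at day 7 and 0.68 at day 2. Of 48 sense intronic transcripts 2 were higher and 26 lower, with a median of -2.11. Of 367 long intergenic RNAs 22 were higher and 143 lower, with a median of -0.97, and of 248 antisense RNAs 17 were higher and 95 lower, with a median of -0.85. Of 1358 processed pseudogenes 58 were higher and 21 lower, with a median of 0.72, so most were not called and both counts were far below those shares. Reads of pseudogenes can be shared with their parent genes. Without pseudogenes and small RNAs the count of genes changed was 9566.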
